A study of Homo sapiens with 18 samples.

Results

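DNA replication machinery is described here as 44 genes chosen by symbol for their known work at the replication fork: origin licensing, the MCM helicase and its activation, the replicative polymerases, the sliding clamp, single-strand binding, Okazaki fragment processing and chromatin assembly behind the fork. All 44 were found in each of the 4 deposited tables, among 16532 genes for H929, 58884 named rows in each of both MM1S expression tables and 20308 genes in the immunoprecipitation table. No measured value was used to choose them, but they were proposed with earlier results of these data in view. The study asked what RBM39, an RNA-binding splicing factor, does in multiple myeloma, a cancer of plasma cells, in the established human myeloma lines MM1S and H929. Of 18 libraries, 2 were MM1S labelled shRBM39 and 2 MM1S labelled SCR (a scrambled control hairpin), 3 were MM1S labelled In, read here as indisulam from the design text, and 3 MM1S with the vehicle DMSO, 3 were H929 labelled shRBM39 and 3 H929 labelled scr, and 1 RBM39 immunoprecipitate (RIP) was set against 1 IgG control from MM1S. Indisulam is a sulfonamide that brings RBM39 to a ubiquitin ligase for degradation of the protein. The labels name no hairpin, dose or time, and they do not say whether numbered libraries came from separate cultures, so p-values measure the spread between these libraries, which may be technical.

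Before S phase, the origin recognition complex, CDC6 and CDT1 load the MCM2-7 ring onto DNA. CDC45 and the GINS complex then join MCM2-7 to form the active CMG helicase, polymerase alpha-primase lays down primers, and polymerases epsilon and delta extend them while held by the PCNA ring, which the RFC complex loads. Most of these genes are transcribed in a wave at the start of S phase, driven by E2F factors, so their summed RNA is high in cycling cells and low in resting ones. In bulk libraries such as these, fewer cells in S phase and less RNA per cell cannot be told apart.

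Promoter windows for 36 of the 44 members were listed by RefSeq on GRCh38.p14, each holding 250 bases before the start site and 50 after it; MCM4, MCM5, GINS4, POLD3, DSCC1, RPA2, RPA3 and DNA2 are named only. The windows of PCLAF, CDC6 and ASF1B are shown because these members had the largest mean change among those that fell in both MM1S comparisons described further on. Capitals mark an E2F form (TTTCCCGC, TTTCGCGC, TTTGCCGC or TTTGGCGC), the CCAAT box (CCAAT) and the cell cycle homology element, CHR (TTTGAA or TTCGAA), each searched on both strands, so that ATTGG is CCAAT on the opposite strand.
PCLAF, chr15:64381392-64381691, minus strand: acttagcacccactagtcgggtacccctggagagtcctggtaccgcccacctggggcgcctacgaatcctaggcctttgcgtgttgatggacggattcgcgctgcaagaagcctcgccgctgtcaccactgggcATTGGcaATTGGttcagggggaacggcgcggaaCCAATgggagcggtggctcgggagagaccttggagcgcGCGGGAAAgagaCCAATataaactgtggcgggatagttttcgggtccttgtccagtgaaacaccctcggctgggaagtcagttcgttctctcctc
CDC6, chr17:40287629-40287928, plus strand: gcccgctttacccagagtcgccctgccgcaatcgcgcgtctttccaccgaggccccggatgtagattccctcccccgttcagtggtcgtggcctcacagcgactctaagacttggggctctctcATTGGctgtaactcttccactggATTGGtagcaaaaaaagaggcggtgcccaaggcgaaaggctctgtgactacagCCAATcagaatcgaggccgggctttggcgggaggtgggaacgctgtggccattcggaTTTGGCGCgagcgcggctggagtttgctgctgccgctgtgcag
ASF1B, chr19:14136540-14136839, minus strand: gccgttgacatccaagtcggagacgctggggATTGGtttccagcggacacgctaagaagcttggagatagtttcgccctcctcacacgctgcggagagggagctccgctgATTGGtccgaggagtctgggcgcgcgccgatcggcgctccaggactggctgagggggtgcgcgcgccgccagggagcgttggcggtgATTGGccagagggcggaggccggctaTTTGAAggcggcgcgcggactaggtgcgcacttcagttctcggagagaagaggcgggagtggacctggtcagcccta

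In the PCLAF window the E2F form lay at bases -45 to -38, counted from the start site as base 0, between CCAAT boxes whose nearest began at -83 and -33. PCLAF had 2 listed windows, and the one not shown held none of the motifs. The CDC6 E2F form lay just inside the transcript, at bases 7 to 14. The ASF1B window held 3 CCAAT boxes and a CHR at -27 to -22, and no E2F form of the letters searched. Across the 36 members with a window, 18 held an E2F form, against 3.99% of all 27305 genes with a window and 6.85% of the 9542 of them tested in the MM1S knockdown. CCAAT was present in 23 of 36 members (63.9%), against 39.7% of all genes and 43.9% of those tested. The CHR was present in 2 members, ASF1B and MCM6 (5.56%), against 19.5% of all genes and 15.7% of those tested. These matches describe letters in a fixed window and do not show binding.

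Values were FPKM in H929 and in the RIP and TPM in MM1S, both scaled to transcript length. Read depth was not given for MM1S; in H929 the steps between low values put the 6 libraries at 0.98 to 1.15 times the depth of scramble replicate 1. RBM39 itself was read first as a check of the labels. In MM1S it stood at 64.8 and 52.2 TPM in shRBM39 libraries, against 176 and 205 TPM in scramble libraries (log2 difference -1.69, limma adjusted p 0.0121). In H929 the libraries labelled shRBM39 had 38.3, 38.6 and 35.6 FPKM, against 4.56, 4.43 and 4.51 FPKM in libraries labelled scramble, the opposite of what a knockdown label states, so every H929 direction below is that of the libraries so labelled. Indisulam acts on the protein, and RBM39 RNA overlapped, at 226.5, 217 and 149 TPM in indisulam libraries and 189, 178 and 196 TPM in DMSO libraries. Indisulam replicate 3 stood apart in detecting 12875 genes at 1 TPM or more, against 14134 and 14130 in the other indisulam libraries. Plasma cell markers summed to 7532 to 8769 TPM in MM1S shRBM39 libraries and 4663 to 6931 TPM in scramble libraries, and to 6090 to 7335 TPM in indisulam libraries and 7740 to 8081 TPM in DMSO libraries. Most of the knockdown sums was JCHAIN, at 5612 and 5417 TPM in shRBM39 libraries, against 2884 and 4940 TPM in scramble libraries. Of the 10 markers, 1 was called higher and 0 lower under shRBM39, where 3.97% of all genes tested were higher and 6.35% lower. Under indisulam, 1 was called higher and 4 lower, where 8.47% of all genes tested were higher and 21.5% lower. In H929 the plasma cell markers summed to 7980 to 8124 FPKM in libraries labelled shRBM39 and 5028 to 5149 FPKM in scramble libraries. Of 10, 7 were called higher, among them SDC1 (2.00 on the log2 scale) and DERL3 (1.68), and 3 lower. Over all H929 genes tested, 24.1% were called higher and 48.1% lower. H929 column totals were 409102 to 428099 FPKM in libraries labelled shRBM39 and 374511 to 374807 FPKM in scramble libraries, so all H929 sums carry that difference in scale. Of the markers of other cells, 4 of 5 T cell genes in H929, 4 of 6 in the MM1S knockdown table and 5 of 6 in the indisulam table were under 1 in every library, among them CD3D, CD2 and CD8A. Summed T cell markers were at 2.76 to 2.85 TPM in shRBM39 libraries and 5.17 to 5.76 TPM in scramble libraries, and at 1.37 to 1.71 TPM in indisulam libraries and 3.69 to 4.83 TPM in DMSO libraries. The macrophage markers CD14, LYZ, CSF1R and CD163 were under 1 throughout, and the summed list stood at 5.72 to 9.82 TPM in shRBM39 libraries and 16.1 to 21.1 TPM in scramble libraries, nearly all of it CD68. In H929, summed T cell markers stood at 15.7 to 18.5 FPKM in libraries labelled shRBM39 and 39.3 to 47.1 FPKM in scramble libraries, nearly all of it CD3E. Macrophage markers there summed to 13.4 to 14.7 FPKM and 25.1 to 26.9 FPKM in those same groups, B cell markers to 64.2 to 67.8 FPKM and 58.6 to 62.2 FPKM, and stromal markers to 5.46 to 5.87 FPKM and 15.8 to 17.1 FPKM. Nearly all of the macrophage sum was CD68, and nearly all of the stromal sum was ACTA2. The part of such transcripts in the results was not tested.

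In MM1S cells labelled shRBM39, replication genes were lower as a group. All 44 members passed the low-value filter, 32 fell at an adjusted p under 0.05 and none rose, where 6.35% of the 14152 genes tested fell and 3.97% rose. Both shRBM39 libraries lay below both scramble libraries for all 44, a pattern that 31.9% of all genes tested showed. The median log2 difference over the members was -1.21, ranging between -3.07 for PCLAF and -0.35 for PRIM1, against -0.00075 over all genes, and the median member stood at 41.5% of its scramble level. Summed over the 44 genes, shRBM39 libraries held 1261 and 975 TPM, against 2534 and 2555 TPM in scramble libraries. ShRBM39 replicate 2 was the lower of the pair for 40 of 44 members, and RBM39 was lower there too.

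The number of MM1S knockdown calls rested on having both scramble libraries: without either one, limma called 0 members and 0 of all genes, although 2444 or 2565 genes had an unadjusted p under 0.05. Such a fit leaves 1 library in the scramble arm, which is assumed to vary like the shRBM39 pair. Without shRBM39 replicate 1 or 2, with the spread taken from the scramble pair, 38 and 34 members were called lower, and over all genes 401 were called higher and 1029 lower, and 795 and 974, against 562 and 899 with all 4 libraries. With all 4 libraries the unadjusted p was under 0.05 for 44 of 44 members, and adjusted p-values of the called members ran between 0.0116 and 0.0489, close to the threshold.

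MM1S replication genes were lower under indisulam as well. Of 44 members, 41 fell and none rose, where 21.5% of the 13445 genes tested fell and 8.47% rose. All 3 indisulam libraries lay below all 3 DMSO libraries for 42 members, against 32.3% of all genes. The median log2 difference was -1.56, against -0.051 over all genes, and the median member stood at 28.2% of its DMSO level, with CDC6 lowest at 6.68%. Summed over the 44 genes, indisulam libraries held 586, 718 and 575 TPM, against 2024, 2004 and 2202 TPM in DMSO libraries. Indisulam replicate 2 was the highest of its group for 33 members. GINS2, MCM10 and TICRR were under 1 TPM in at least 1 indisulam library and passed the filter through DMSO, which favours a fall, so their direction adds little to the counts. Differences of such low genes are understated on the log2(value + 1) scale used throughout.

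The members called lower under indisulam numbered between 35 and 42 when any 1 library was left out. Without indisulam replicate 3, calls over all genes became 4945 higher and 3894 lower, against 1139 and 2885 with it, and scaling moved their split too: 28.3% of calls were higher as deposited, 52.1% after quantile normalization and 46.7% after median scaling, while 40 members fell under either.

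In H929 the picture was mixed and smaller in size. In libraries labelled shRBM39, which held more RBM39 RNA, 23 members were higher, 9 were lower and 12 did not pass the test, where 24.1% of the 10360 genes tested were called higher and 48.1% lower. All 3 libraries labelled shRBM39 lay above all 3 scramble libraries for 20 members, against 25.1% of all genes, and below them for 12 members, against 49.6% of all genes. The median log2 difference was 0.18 over the members and -0.13 over all genes, and 36 of 44 members lay above that all-gene median. Summed over the 44 genes, the libraries labelled shRBM39 held 1165, 1082 and 1077 FPKM, against 982, 967 and 981 FPKM in scramble libraries. Their column totals over all genes were higher too, at 428099, 409102 and 415255 FPKM, against 374511, 374807 and 374767 FPKM. The sums carry that difference in scale and do not by themselves show a rise of the group. The direction of the weaker members depended on scaling: with medians aligned, 30 members were called higher and 2 lower, and with quantile normalization 31 and 3. Over all 10360 genes tested, 3932 were called higher and 3312 lower with medians aligned, and 3567 and 3620 with quantile normalization. The share of all calls that were higher was 33.4% as deposited, 54.3% with medians aligned and 49.6% after quantile normalization.

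**Figure D1:**
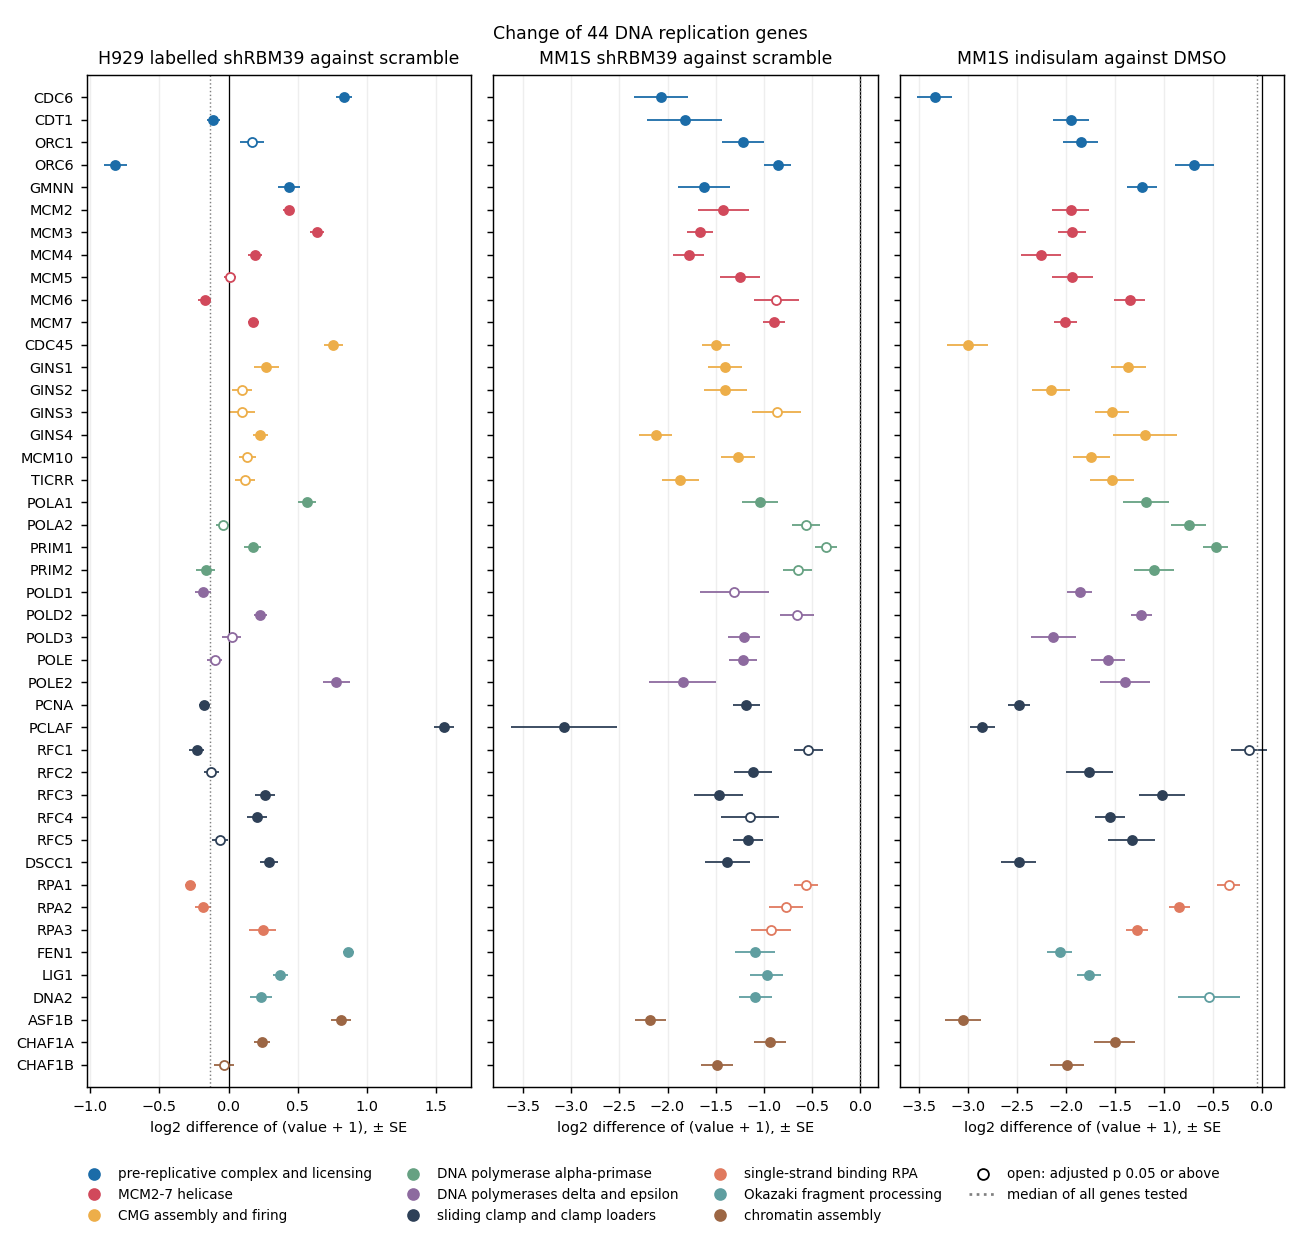
Log2 difference of (value + 1) with its standard error for each of the 44 genes, in H929 libraries labelled shRBM39 against scramble, MM1S shRBM39 against scramble and MM1S indisulam against DMSO; colours mark the subcomplex, open points did not pass the test and the dotted line is the median of all genes tested. All MM1S points lie below 0, between -3.07 and -0.35 for the knockdown and between -3.34 and -0.13 for indisulam, while the H929 points lie on both sides of 0, between -0.82 for ORC6 and 1.56 for PCLAF.

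Among the licensing genes, CDC6 and CDT1 help load the helicase, ORC1 and ORC6 belong to the origin recognition complex, and GMNN (geminin) binds and restrains CDT1. All 5 fell in both MM1S comparisons. CDC6 stood at 19.3 and 10.6 TPM in shRBM39 libraries, against 64.0 and 62.5 TPM in scramble libraries (log2 difference -2.07, SE 0.28, limma adjusted p 0.0205). Indisulam libraries held 1.61, 2.38 and 1.55 TPM of CDC6, against 27.8, 25.3 and 29.8 TPM in DMSO libraries (log2 difference -3.34, SE 0.18, limma adjusted p 8.92e-05). The groups were far apart in both, and the indisulam difference was the largest of any member in either comparison. In H929 CDC6 went the other way, at 36.3, 32.1 and 32.5 FPKM in libraries labelled shRBM39 and 18.6, 17.9 and 18.8 FPKM in scramble libraries.

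CDT1 had 8.07 and 3.17 TPM in shRBM39 libraries, against 23.7 and 18.1 TPM in scramble libraries, with the highest adjusted p of the called members (0.0489, limma). It averaged 5.23 ± 1.19 TPM in indisulam libraries and 22.8 ± 1.45 TPM in DMSO libraries (SD, n = 3 each). ORC1 fell by 1.22 on the log2 scale under shRBM39 and by 1.85 under indisulam. GMNN fell by 1.62 under shRBM39 and by 1.22 under indisulam, so that both the loader and its inhibitor were lower in the same libraries. ORC6 was the licensing gene that changed least in MM1S, with log2 differences of -0.86 under shRBM39 and -0.69 under indisulam. It was also the member that was lowest in H929, at 17.1, 14.4 and 13.0 FPKM in libraries labelled shRBM39, against 27.0, 25.0 and 28.2 FPKM in scramble libraries, with no overlap (log2 difference -0.82). GMNN rose in those libraries by 0.44 on the log2 scale, CDT1 fell by 0.11, and ORC1 did not pass the test (0.17, limma adjusted p 0.0972).

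MCM2 to MCM7 encode the 6 subunits of the hexameric helicase, which assemble in equal numbers. Their summed RNA was 301 and 235 TPM in shRBM39 libraries, against 686 and 724 TPM in scramble libraries. Under indisulam it was 124, 176 and 132 TPM, against 559, 538 and 607 TPM in DMSO libraries. Neither pair of groups came near to touching. MCM4 fell by 1.78 under shRBM39, to 72.8 and 57.2 TPM, against 211 and 239 TPM in scramble libraries. MCM3 fell by 1.66, MCM2 by 1.42, MCM5 by 1.25 and MCM7 by 0.90 on the same scale. MCM6 held 31.3 and 19.7 TPM in shRBM39 libraries, against 43.9 and 48.8 TPM in scramble libraries, without overlap but short of the threshold (limma adjusted p 0.0744).

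Under indisulam all 6 helicase genes fell: the log2 differences of MCM2, MCM3, MCM4, MCM5 and MCM7 lay between -2.25 and -1.93, with MCM6 at -1.35. MCM7 held 38.6, 46.5 and 37.0 TPM in indisulam libraries, against 156, 163 and 180 TPM in DMSO libraries, whereas its knockdown difference was -0.90. The ratio of the highest to the lowest helicase gene within a library was 2.62 and 3.64 in shRBM39 libraries, against 4.81 and 4.89 in scramble libraries. It was 2.81, 2.45 and 2.87 in indisulam libraries, against 3.82, 3.93 and 3.97 in DMSO libraries. The subunit RNAs thus stood closer together in shRBM39 and indisulam libraries than in their controls. Within these groups the ratio did not follow the sum. ShRBM39 replicate 2 had the lower sum of its pair (235 TPM) and the wider ratio (3.64). Indisulam replicate 2 had the highest sum of its group (176 TPM) and the narrowest ratio (2.45). In H929, MCM3 rose by 0.64 and MCM2 by 0.43 in libraries labelled shRBM39, MCM4 and MCM7 by 0.19 and 0.18, MCM6 fell by 0.17, and MCM5 had 38.9, 37.5 and 37.2 FPKM, against 38.1, 36.6 and 38.1 FPKM in scramble libraries, which overlap.

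**Figure D2:**
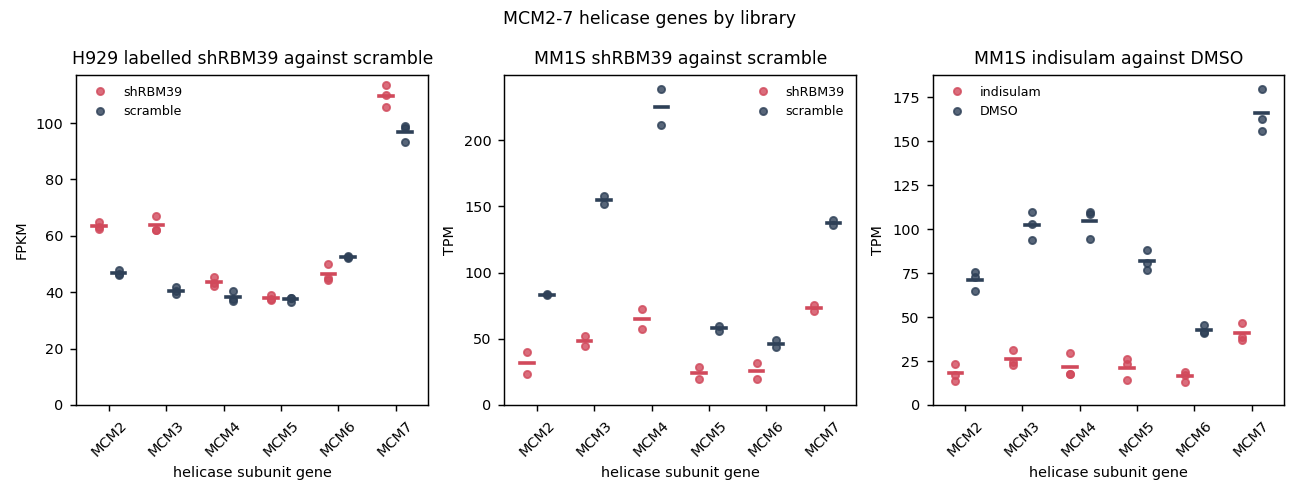
Level of each MCM2-7 gene in every library, in FPKM for H929 libraries labelled shRBM39 and scramble and in TPM for MM1S shRBM39 against scramble and MM1S indisulam against DMSO; points are libraries and bars are group means. In MM1S every shRBM39 or indisulam point lies below its controls, MCM4 having 72.8 and 57.2 TPM in shRBM39 libraries and 211 and 239 TPM in scramble libraries, while in H929 MCM2 and MCM3 are higher in the libraries labelled shRBM39 and MCM5 overlaps.

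The next genes turn the loaded ring into a moving helicase: CDC45 and GINS1 to GINS4 complete the CMG complex, TICRR (treslin) brings CDC45 to origins, and MCM10 activates the assembled helicase. CDC45 held 12.2 and 10.5 TPM in shRBM39 libraries, against 33.5 and 33.9 TPM in scramble libraries (log2 difference -1.50). Indisulam libraries held 2.74, 4.69 and 2.56 TPM of CDC45, against 32.7, 33.2 and 32.7 TPM in DMSO libraries (log2 difference -3.00, SE 0.21, limma adjusted p 0.000187). Every shRBM39 and indisulam library lay below its controls, whose levels were alike in both tables although these were normalized separately. GINS4 showed the reverse order, with 4.91 and 6.11 TPM in shRBM39 libraries, against 26.6 and 27.9 TPM in scramble libraries (log2 difference -2.12). Under indisulam GINS4 had 4.27, 2.01 and 1.34 TPM, against 8.01, 5.03 and 7.14 TPM in DMSO libraries (log2 difference -1.19).

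GINS1 fell by 1.40 under shRBM39 and 1.36 under indisulam, and GINS2 by 1.40 and 2.15. GINS3 held 8.03 and 4.81 TPM in shRBM39 libraries, against 12.0 and 12.5 TPM in scramble libraries, and was the one gene of this group that missed the threshold there (limma adjusted p 0.0847). It fell by 1.53 under indisulam. TICRR fell by 1.87 and 1.53, and MCM10 by 1.27 and 1.74, to 0.49, 1.02 and 0.47 TPM in indisulam libraries, against 4.82, 3.97 and 4.68 TPM in DMSO libraries. In H929 libraries labelled shRBM39, CDC45 rose by 0.76, to 10.7, 9.67 and 9.46 FPKM, against 5.51, 5.89 and 5.07 FPKM in scramble libraries. GINS1 and GINS4 rose by 0.27 and 0.23, while GINS2, GINS3, MCM10 and TICRR did not pass the test, with differences between 0.09 and 0.14.

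Polymerase alpha-primase, which starts each new strand with an RNA-DNA primer, had a median log2 difference of -0.61 under shRBM39 and -0.92 under indisulam, beside -1.33 and -1.94 for the helicase genes. POLA1 is its catalytic polymerase subunit, POLA2 its accessory subunit, and PRIM1 and PRIM2 make up the primase. POLA1 alone was called lower under shRBM39, at 4.65 and 5.50 TPM, against 10.6 and 12.3 TPM in scramble libraries (log2 difference -1.04). PRIM1 had the smallest knockdown difference of all 44 members, with 73.7 and 75.8 TPM in shRBM39 libraries, against 97.9 and 93.8 TPM in scramble libraries (log2 difference -0.35, limma adjusted p 0.11). POLA2 and PRIM2 lay at -0.56 and -0.65, with adjusted p-values of 0.0661 and 0.0549 from limma. Under indisulam all 4 fell, POLA1 by 1.18, PRIM2 by 1.10, POLA2 by 0.75 and PRIM1 by 0.47. PRIM1 reached 27.3, 21.8 and 22.5 TPM, against 32.4, 34.5 and 33.2 TPM in DMSO libraries. In H929 libraries labelled shRBM39, POLA1 and PRIM1 rose by 0.57 and 0.17, PRIM2 fell by 0.17 and POLA2 did not pass the test. PRIM2 has a near-identical pseudogene copy in the human genome, so its level is uncertain.

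Polymerase delta, which extends the lagging strand, was represented by POLD1, POLD2 and POLD3, and polymerase epsilon, which extends the leading strand, by POLE and POLE2. Under shRBM39 the catalytic subunit POLE fell by 1.22, its partner POLE2 by 1.84 and the delta subunit POLD3 by 1.21. POLE2 held 3.79 and 1.52 TPM in shRBM39 libraries, against 12.8 and 10.2 TPM in scramble libraries. POLD1, the catalytic subunit of delta, had 32.7 and 14.9 TPM in shRBM39 libraries, against 60.1 and 52.8 TPM in scramble libraries. The shRBM39 libraries lay far from each other for POLD1, and its difference of -1.31 did not pass (limma adjusted p 0.0754). POLD2 lay at -0.66 and did not pass either (limma adjusted p 0.0716).

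All 5 polymerase genes fell under indisulam, POLD3 by 2.13, POLD1 by 1.86, POLE by 1.56, POLE2 by 1.39 and POLD2 by 1.23. POLD1 then stood at 13.8, 17.2 and 13.9 TPM, against 53.7, 56.5 and 59.3 TPM in DMSO libraries. In H929 libraries labelled shRBM39, POLE2 rose to 3.20, 2.09 and 2.63 FPKM, against 1.17, 1.01 and 1.14 FPKM in scramble libraries (log2 difference 0.78 after adding 1). POLD2 rose by 0.23, POLD1 fell by 0.18, and POLD3 and POLE did not pass the test.

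PCNA is the ring that holds polymerases on DNA, PCLAF (listed as KIAA0101 in the RIP table) is a small protein that binds it, RFC1 to RFC5 form the loader, and DSCC1 belongs to an alternative loader. PCNA was the most abundant member in both MM1S control groups, and an antisense gene overlaps it, with strand use in counting not given. PCNA held 149 and 123 TPM in shRBM39 libraries, against 309 and 309 TPM in scramble libraries (log2 difference -1.18, SE 0.14, limma adjusted p 0.0162). Indisulam libraries held 38.5, 48.5 and 41.4 TPM of PCNA, against 231, 237 and 260 TPM in DMSO libraries (log2 difference -2.48, SE 0.11, limma adjusted p 5.24e-05). The ring gene was lower in every shRBM39 and indisulam library than in any of its controls. In H929 it differed little, at 54.9, 52.7 and 53.1 FPKM in libraries labelled shRBM39, against 61.6, 59.6 and 60.6 FPKM in scramble libraries (log2 difference -0.17).

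PCLAF, whose promoter window carried an E2F form and 4 CCAAT boxes, changed most of all members in the knockdown and in H929. It held 18.0 and 4.63 TPM in shRBM39 libraries, against 84.5 and 87.9 TPM in scramble libraries (log2 difference -3.07, SE 0.55, limma adjusted p 0.0347). Both shRBM39 libraries were far below the controls but also far from each other. Indisulam libraries held 13.6, 16.6 and 16.8 TPM, against 108, 116 and 134 TPM in DMSO libraries (log2 difference -2.85). In H929, PCLAF stood at 12.6, 12.6 and 12.1 FPKM in libraries labelled shRBM39, against 4.02, 3.30 and 3.41 FPKM in scramble libraries (log2 difference 1.56). It was the one member whose H929 difference exceeded 1 on the log2(value + 1) scale. POLE2, with a scramble mean of 1.11 FPKM, stood at 238% of that mean but at 0.78 on this scale.

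Among the loaders, RFC2, RFC3, RFC5 and DSCC1 fell under shRBM39, by 1.11, 1.47, 1.17 and 1.38. RFC4 had 59.9 and 31.5 TPM in shRBM39 libraries, against 97.2 and 97.2 TPM in scramble libraries, which did not pass (limma adjusted p 0.0709). RFC1, the large subunit, had 48.6 and 51.5 TPM in shRBM39 libraries, against 80.8 and 66.3 TPM in scramble libraries, and did not pass either (limma adjusted p 0.0754). RFC1 also stood apart under indisulam, with 35.0, 32.1 and 21.5 TPM, against 31.9, 32.4 and 31.1 TPM in DMSO libraries, groups that overlap (log2 difference -0.13, limma adjusted p 0.623). DSCC1 fell by 2.48 under indisulam, to 1.49, 1.51 and 1.04 TPM, against 12.4, 10.8 and 13.1 TPM in DMSO libraries. RFC2, RFC4, RFC5 and RFC3 fell by 1.76, 1.55, 1.33 and 1.02. In H929 libraries labelled shRBM39, DSCC1, RFC3 and RFC4 rose by 0.29, 0.26 and 0.20, RFC1 fell by 0.23, and RFC2 and RFC5 did not pass the test.

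RPA1, RPA2 and RPA3 form the complex that coats single-stranded DNA in replication and in repair. None of them passed the test under shRBM39, with limma adjusted p-values between 0.0512 and 0.0529. RPA1 held 35.8 and 34.6 TPM in shRBM39 libraries, against 54.7 and 50.3 TPM in scramble libraries (log2 difference -0.56). RPA2 and RPA3 lay at -0.77 and -0.93. Under indisulam RPA3 fell by 1.27 and RPA2 by 0.84, and RPA1 had 41.8, 41.0 and 36.3 TPM, against 49.1, 46.7 and 55.4 TPM in DMSO libraries, without overlap but short of the threshold (log2 difference -0.34, limma adjusted p 0.0641). In H929 libraries labelled shRBM39, RPA1 and RPA2 fell by 0.28 and 0.18, and RPA3 rose by 0.25 with overlapping groups.

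FEN1 trims the flap of an Okazaki fragment, LIG1 seals the nick, and DNA2 cuts long flaps. All 3 fell under shRBM39, by 1.09, 0.97 and 1.09. FEN1 held 21.0, 28.1 and 23.1 TPM in indisulam libraries, against 99.4, 101 and 109 TPM in DMSO libraries (log2 difference -2.06), and LIG1 fell there by 1.76. DNA2 overlapped under indisulam, at 3.59, 3.41 and 1.13 TPM, against 4.55, 3.36 and 4.42 TPM in DMSO libraries (log2 difference -0.53, limma adjusted p 0.242). In H929, FEN1 stood at 85.3, 80.5 and 82.4 FPKM in libraries labelled shRBM39, against 44.7, 45.1 and 45.2 FPKM in scramble libraries (log2 difference 0.86, SE 0.04, limma adjusted p 1.32e-09). LIG1 and DNA2 rose there by 0.37 and 0.23.

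Behind the fork, CHAF1A and CHAF1B, subunits of the CAF-1 complex, deposit new histones that ASF1B hands over. ASF1B held 8.86 and 7.24 TPM in shRBM39 libraries, against 38.0 and 41.7 TPM in scramble libraries (log2 difference -2.18, SE 0.16, limma adjusted p 0.0116). It held 7.46, 8.55 and 5.15 TPM in indisulam libraries, against 64.6, 61.8 and 68.0 TPM in DMSO libraries (log2 difference -3.05, SE 0.18, limma adjusted p 0.000122). No library of one group came near the other in either comparison. CHAF1B fell by 1.49 under shRBM39 and 1.99 under indisulam, and CHAF1A by 0.93 and 1.50. In H929, ASF1B stood at 45.7, 38.3 and 41.0 FPKM in libraries labelled shRBM39, against 21.1, 23.5 and 25.2 FPKM in scramble libraries (log2 difference 0.81). CHAF1A rose there by 0.24, and CHAF1B did not pass the test.

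Set side by side, the MM1S comparisons ordered the members in a similar way. Over the 44 members, the log2 differences of the knockdown and of indisulam had a Pearson correlation of 0.652 and a Spearman correlation of 0.613. These describe genes and not replicates, and the points share the cell line, while the libraries and controls are separate. Both values were below 0 for all 44, 31 members were called lower in both, and the indisulam value was the lower one for 33. Taken singly, 6.35% of all genes tested were called lower in the knockdown and 21.5% under indisulam. The share of all genes called lower in both was not computed. CDC45, MCM7, PCNA, CDC6 and DSCC1 lay furthest toward indisulam, and GINS4 toward the knockdown. Whether any member differed between the comparisons was not tested, since their tables were normalized separately.

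**Figure D3:**
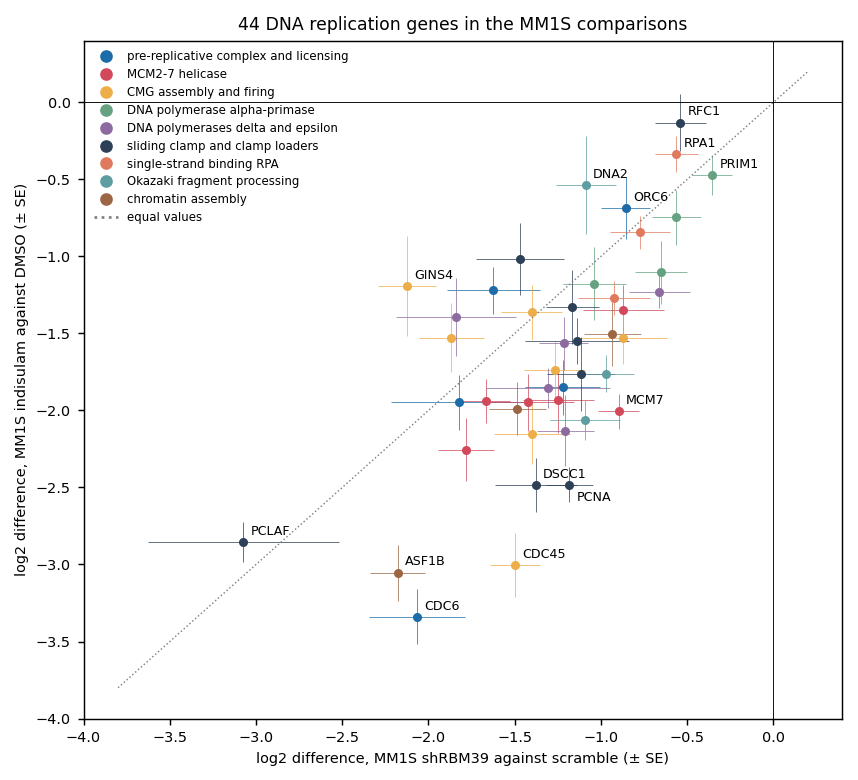
Log2 difference of each of the 44 genes in MM1S shRBM39 against scramble (horizontal) and in MM1S indisulam against DMSO (vertical), with standard errors; colours mark the subcomplex and the dotted line marks equal values. Points lie at the lower left, 33 of 44 under the dotted line, with RFC1, RPA1 and PRIM1 near the upper right and PCLAF, CDC6 and ASF1B at the far end.

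The H929 differences ran opposite to those of the MM1S knockdown across the members, with a Pearson correlation of -0.637 over 44 genes, which describes genes and not replicates. Its sign rests on the H929 labels, which RBM39 RNA goes against: with the H929 groups exchanged it would be 0.637. As labelled, 19 members were called higher in H929 libraries labelled shRBM39 and lower in MM1S shRBM39 libraries. Taken singly, 24.1% of all genes tested were called higher in H929 and 6.35% lower in the MM1S knockdown. The share of all genes with both calls was not computed, so this count has no background of its own. Every H929 library labelled shRBM39 above every scramble library and every MM1S shRBM39 library below every scramble library was a pattern of 20 members and of 14.2% of the 9509 genes tested in both tables. The 3 members called lower in both were CDT1, ORC6 and PCNA, where 48.1% of all genes were called lower in H929 and the joint share was not computed. RBM39 RNA itself was 2.81 higher on the log2 scale in the H929 libraries labelled shRBM39 and 1.69 lower in the MM1S ones.

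Members with an E2F form in the promoter window had a larger median change than those without it in each comparison, and the difference was not tested. In the MM1S knockdown the median log2 difference was -1.40 for the 18 with the form and -1.13 for the 18 without it. Under indisulam these medians were -1.66 and -1.54, and in H929 libraries labelled shRBM39 0.27 and 0.13. Members without the searched form spread widely under indisulam. ASF1B and CDC45 fell by 3.05 and 3.00, beside 3.34 for CDC6 and 2.85 for PCLAF, which hold it. RFC1, RPA1, PRIM1 and ORC6, also without it, lay at -0.13, -0.34, -0.47 and -0.69.

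Recovery of replication transcripts with RBM39 was read from the RIP, in which 1 RBM39 library was set against 1 IgG library, with no replicate and no test. Column totals were 481945 FPKM in the RBM39 RIP and 653239 FPKM in IgG, and the ratios were not scaled for that difference. Of the 44 members, 43 reached 1 FPKM in at least 1 library, POLE2 being listed at 0 and 0.0873 FPKM. Their median log2 ratio was 0.041, against 0.021 over all 10966 genes. There were 11 members at or above a log2 ratio of 1, where 22.7% of all genes were, and 8 at or below -1, where 23.9% were. RBM39 RNA stood at 62.1 FPKM in the RBM39 RIP and 127 FPKM in the IgG control, a log2 ratio of -1.01.

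The highest ratio was that of the flap nuclease FEN1, at 317 FPKM in the RBM39 RIP and 52.1 FPKM in IgG (2.58). POLA2 had 21.7 FPKM in the RBM39 RIP and 2.91 FPKM in IgG (2.54), MCM6 had 91.7 FPKM in the RBM39 RIP and 16.0 FPKM in IgG (2.45), and ORC1 had 13.5 FPKM in the RBM39 RIP and 2.40 FPKM in IgG (2.09). MCM3, GINS3, RFC2, CHAF1A, MCM2, POLD1 and CHAF1B lay between 1.66 and 1.01. The clamp group stood lowest, 5 of its 8 genes being at or below -1. PCNA had 42.5 FPKM in the RBM39 RIP and 180 FPKM in IgG (-2.06), PCLAF 3.02 FPKM in the RIP and 19.6 FPKM in IgG (-2.36), and RFC4 11.0 FPKM in the RIP and 60.7 FPKM in IgG (-2.37). DNA2 had 0.819 FPKM in the RBM39 RIP and 20.5 FPKM in IgG (-3.57), the lowest ratio of all members, and RPA3 had 0.963 FPKM in the RIP and 9.57 FPKM in IgG (-2.43). These 2 genes were under 1 FPKM in the RBM39 RIP and passed the filter only through the IgG library, so their ratios had to be low. Within MCM2-7, MCM6 stood at 2.45 and MCM4 at -0.84.

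**Figure D4:**
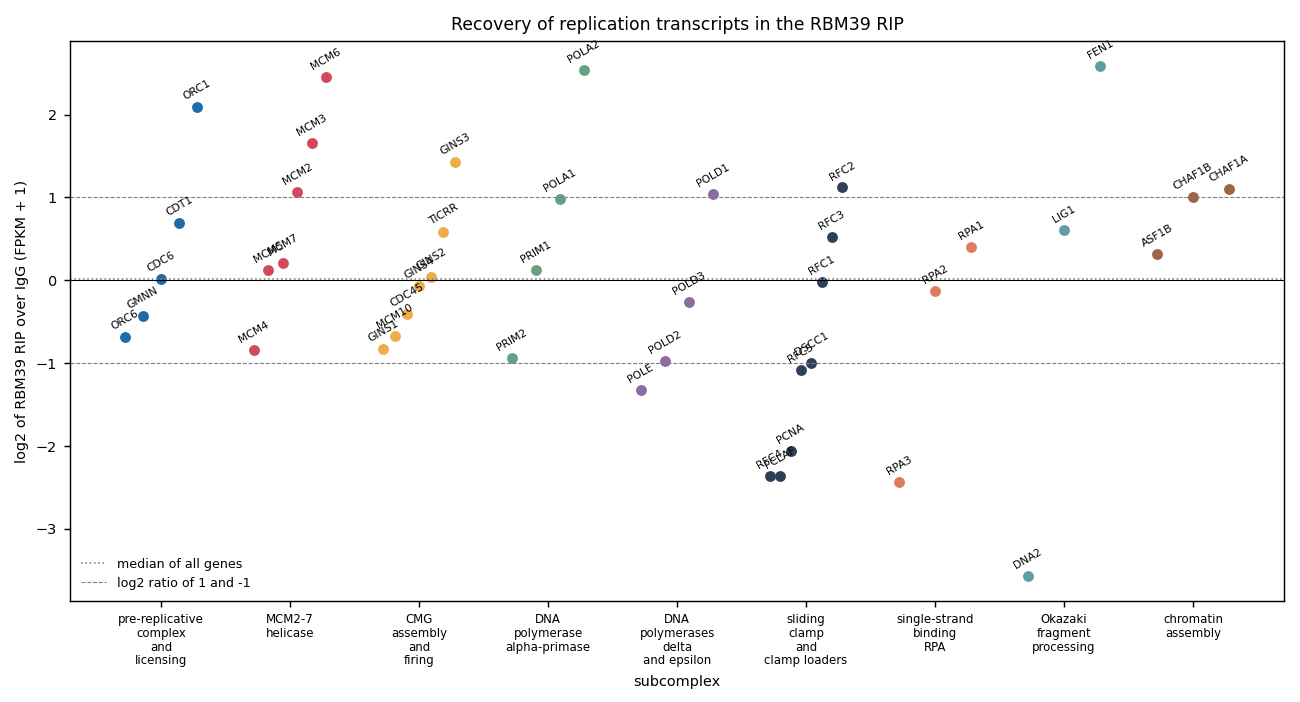
Log2 ratio of RBM39 RIP over IgG (FPKM + 1) for the 43 genes that reached 1 FPKM, by subcomplex, with the median of all genes dotted and ratios of 1 and -1 dashed. Genes lie between -3.57 for DNA2 and 2.58 for FEN1, and PCNA, PCLAF and RFC4 of the clamp group lie below -2.

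Other genes of the replication pathway and of S-phase entry were read from lists chosen with earlier results in view. Of 44 other replication factors, 21 fell under shRBM39 in MM1S, where 6.35% of all genes fell, and 26 under indisulam, where 21.5% fell, and none rose in either; RECQL4, a helicase needed for origin firing, fell by 1.92 and 2.31. Of 13 proliferation markers, 13 fell under shRBM39 and 9 under indisulam, against the same shares of all genes. MKI67, a marker of cycling cells, held 34.9 and 38.6 TPM in shRBM39 libraries, against 123 and 109 TPM in scramble libraries (log2 difference -1.63). Under indisulam it fell by 0.66, beside 1.56 for the median replication gene, to 36.7, 36.3 and 31.7 TPM, against 59.3, 49.8 and 58.6 TPM in DMSO libraries. All 13 proliferation markers thus fell with the members under shRBM39. Under indisulam the list was split. RRM2, TYMS and TK1 fell by 3.50, 3.45 and 2.46, and AURKB, BIRC5 and CDC20 by 2.40, 1.64 and 1.03. CCNB1 and CDK1 overlapped. CCNB1 held 107, 97.5 and 67.0 TPM in indisulam libraries, against 75.9, 75.2 and 75.3 TPM in DMSO libraries. The part of these markers in the result was not tested.

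Of 25 S-phase entry regulators, 14 fell and none rose under shRBM39, where 6.35% of all genes fell and 3.97% rose. Under indisulam, 13 fell and 1 rose, where 21.5% of all genes fell and 8.47% rose. MYBL2, a transcription factor of the S and G2 phases, fell by 2.27 and 3.05. E2F1, an activator of S-phase genes, lay at -0.66 under shRBM39 without passing (limma adjusted p 0.0929) and fell by 2.13 under indisulam, to 4.49, 10.2 and 8.11 TPM, against 33.8, 34.1 and 37.9 TPM in DMSO libraries. CCNE1, cyclin E, lay at -0.63 under shRBM39 (limma adjusted p 0.0798) and fell by 1.78 under indisulam. CDKN1A, the inhibitor p21, was the regulator that rose under indisulam, to 30.5, 22.5 and 18.1 TPM, against 13.6, 13.0 and 14.8 TPM in DMSO libraries; under shRBM39 it had 116 and 76.3 TPM, against 76.0 and 58.5 TPM in scramble libraries, and did not pass (limma adjusted p 0.235).

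In H929, CDKN1A held 129, 122 and 128 FPKM in libraries labelled shRBM39, against 745, 716 and 782 FPKM in scramble libraries (log2 difference -2.56), the strongest fall among the listed regulators there. Of 43 other replication factors, 17 were higher and 12 lower, where 24.1% of all genes were higher and 48.1% lower. The maintenance methyltransferase DNMT1 was higher by 0.95, its partner UHRF1 by 1.15 and the topoisomerase TOP2B by 0.71, while LRWD1, a partner of the origin recognition complex, fell by 0.56. Of 13 proliferation markers, 7 were higher and 4 lower: RRM2, the small subunit of ribonucleotide reductase, rose by 1.91, CDC20 by 0.64 and the thymidylate synthase TYMS by 0.63, and cyclin B2 (CCNB2) fell by 0.50. The list summed to 756 to 791 FPKM in libraries labelled shRBM39 and 627 to 654 FPKM in scramble libraries, sums that carry the difference in column totals as well. Its part in the H929 result was not tested. Of 25 S-phase entry regulators, 8 were higher and 11 lower, E2F7, a repressor of E2F targets, falling by 1.04, and CKS1B, which binds cyclin-dependent kinases, rising by 0.72. MKI67 overlapped (-0.06, limma adjusted p 0.446), E2F1 fell by 0.48, and CCNE1 did not pass the test (0.07, limma adjusted p 0.282).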

How the data were processed

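RNA was measured by sequencing in 16 expression libraries and 2 RIP libraries, made with a SMARTER kit per the labels' protocols. The authors deposited FPKM per gene for H929 and for the RIP; the MM1S values were deposited in files named FPKM, but each column totals 1000000, so they are treated as TPM. The aligner, the counter, its strand setting and read totals: not given in the sources used here. GRCm38 and mm10, which are mouse builds, stand in the submitters' processing notes although the symbols are human, so no coordinates were taken from the files. No counts were used. Rows without a gene name held 0.436 to 0.459% of TPM in the knockdown table and 0.174 to 0.237% in the indisulam table and were left out; 0 columns were unmapped.

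Genes that reached 1 in at least 2 libraries of the MM1S knockdown table, or 3 of the other expression tables, were tested on log2(value + 1) with limma 3.58.1 in R 4.3.3 (trend and robust), with p-values adjusted by Benjamini-Hochberg over all genes and calls at 0.05. Each table was fitted alone, with its 2 groups. Promoter windows came from RefSeq. Scripts were tested on simulated data. Members and lists were chosen with earlier results of these data known. All 44 members are named, with RBM39, MKI67, CDKN1A, E2F1 and CCNE1, and up to 4 genes of each other list by the smallest adjusted p. Some further list genes are named where they make up most of a sum or did not follow their list. Replicate numbers did not pair libraries: same-numbered deviations correlated at 0.129, 0 and 0.025 in H929, -0.142 in the knockdown and 0.137, -0.148 and -0.025 under indisulam. Alternatives were another pseudocount (0.1), other filters (none, or 5), quantile and median scaling, limma without trend, a minimum log2 change of 1, a replicate block and leaving out each library. Figures used matplotlib 3.10.9.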

Additional observations from a re-analysis of the deposited data

Results flagged for a closer look

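Of the 44 replication genes, 20 had every H929 library labelled shRBM39 above every scramble library and every MM1S shRBM39 library below every scramble library. The MM1S condition held for all 44, so the number is that of the members above in H929, a position that 25.1% of all H929 genes had; both conditions held for 14.2% of the 9509 genes tested in both tables. The H929 log2 difference minus the MM1S log2 difference was 4.63 for PCLAF, 2.99 for ASF1B, 2.90 for CDC6, 2.62 for POLE2, 2.35 for GINS4, 2.30 for MCM3, 2.25 for CDC45 and 2.06 for GMNN. It was 1.97 for MCM4, 1.96 for FEN1, 1.85 for MCM2, 1.73 for RFC3, 1.67 for DSCC1, 1.61 for POLA1, 1.41 for MCM10, 1.35 for LIG1, 1.17 for CHAF1A and 1.08 for MCM7. The smallest were 0.89 for POLD2 and 0.53 for PRIM1. For RBM39 itself the same quantity was 4.50, since its RNA was higher in the H929 libraries labelled shRBM39 and lower in the MM1S ones. The opposite directions rest on the H929 labels, which RBM39 RNA goes against. With the sign of the H929 difference turned, the same quantity would be 1.52 for PCLAF, 1.37 for ASF1B, 1.24 for CDC6, 1.07 for POLE2, 1.89 for GINS4 and -1.12 for RBM39. These differences were not tested, because the tables were normalized separately and hold different units.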

How the results depend on the processing

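The MM1S knockdown was the least stable comparison: of 32 members called lower, 0 were called with no filter on low values (where 4966 genes had an unadjusted p under 0.05 with limma and none an adjusted one), 8 with a replicate block, although the numbers do not pair, and 0 to 38 with 1 library left out. Over all genes, the block left 60 higher and 195 lower, against 562 and 899, and a minimum log2 change of 1 left 301 and 586. The 41 indisulam calls stayed within 35 to 42 under all alternatives, while calls over all genes ran to 3026 higher and 2785 lower after quantile normalization, 2593 and 2959 after median scaling, 670 and 2249 with no filter, 693 and 2378 with a filter at 5, 528 and 981 with a minimum log2 change of 1, and 404 to 4945 higher and 1597 to 3894 lower with 1 library left out. In H929, the 9 members called lower became 3 with quantile normalization, 2 with median scaling and 0 with a minimum log2 change of 1, at which the 23 called higher became 1; the count over all genes became 159 and 333 there, and 3932 and 3312 with median scaling. Directions turned in H929 for small values only. With quantile normalization and median scaling, POLA2 moved to 0.14 and 0.12, POLE to 0.056 and 0.063, RFC2 to 0.026 and 0.038, RFC5 to 0.091 and 0.10, CHAF1B to 0.12 and 0.13 and MKI67 to 0.034 and 0.10, and CDT1 to 0.054 with median scaling; POLA2 then passed the test under quantile normalization (adjusted p 0.0296). With 1 library left out, MCM5 ran between -0.010 and 0.022, GINS3 between -0.042 and 0.17, POLD3 between -0.018 and 0.063, CHAF1B between -0.065 and 0.030 and MKI67 between -0.12 and 0.034. Under indisulam, RFC1 turned to 0.012 with quantile normalization and ran between -0.26 and 0.074 with 1 library left out, the highest without indisulam replicate 3, and RBM39 between -0.056 and 0.24. The RIP median of 0.041 became 0.045 with a pseudocount of 0.1, 0.027 with a filter at 5 or none, and 0.020 after subtracting the median of all genes. The cause of these shifts was not tested. With 2 libraries a group, the knockdown had the largest standard errors for PCLAF (0.55) and CDT1 (0.39), and under indisulam GINS4 (0.33) and DNA2 (0.32) had the largest; the RIP had 1 library a side, and read totals were not used.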
